A study of Mus musculus with 2 samples.

Results

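Hair follicle transcription factors were examined in the skin and the tooth of newborn mice. The 10 genes were Gata3, Cux1, Trps1, Lef1, Lhx2, Ovol1, Vdr, Meis2, Hr and Runx1. They were taken by gene name from the non-control spots of both arrays, which gave 16 probes of 33182 named probes, and 10 genes of 24323 named genes. The names were chosen for what these genes are known for in hair, with earlier results of these arrays known.

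Both tissues, tooth and skin, were taken from wild-type mice (WT in the labels). No strain is named in the labels and no agent or allele was applied to either tissue. The labels give the age as P0, while the methods of the study name a stage 1 day later for both tissues, so the age is open by that day. The study describes tooth germs of incisors, with epithelium and mesenchyme, and skin with its hair follicles. How many animals gave RNA to an array is not given in the sources used here. Each tissue was hybridised to 1 array of a shared slide, so no spread between animals is known, no test was run and every difference below compares these arrays only.

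Hair and teeth both start as thickenings of the surface epithelium that fold into the mesenchyme, and they share much of their early signalling, including Wnt. They then part, as the follicle builds an outer and an inner root sheath and a hair shaft, while the tooth bud forms enamel-secreting ameloblasts and dentin-secreting odontoblasts. The transcription factors described here are known from mouse mutants or human syndromes with altered hair, and several of them act in other organs too. Hair follicles of newborn skin are still being formed, so bud, sheath and early shaft stages can be present together.

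Values are given as the log2 signal relative to the 75th percentile of the array, called the scaled level below, and differences are skin minus tooth. A probe is called detected where the extraction software judged its signal to stand well above background. All 16 probes were detected on both arrays, and none was saturated or an outlier. Each probe was printed as a single spot, and the software gave the intensity an error between 10% and 20.2%, the highest being that of Lhx2 in tooth. Scatter between repeated spots of other, bright probes put the SD of a difference between single spots at 0.12 (log2), without any part from dissection, RNA preparation or labelling.

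Of the 10 genes, 8 were at least 2-fold higher in skin, whereas 14.2% of the 17409 named genes detected on at least 1 array passed that fold. None of the 10 was at least 2-fold higher in tooth, against 15.5% of the named genes. The median difference of the 10 genes was 1.73 (log2), and that of all named genes was -0.04. Lhx2, Gata3 and Ovol1 differed most, Hr, Lef1, Trps1, Meis2 and Vdr differed by between 2.37-fold and 4.36-fold, and Runx1 and Cux1 stayed within 2-fold by the probes that stand for them. In bulk tissue, fewer cells of a type and less RNA per cell cannot be told apart.

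**Figure D1:**
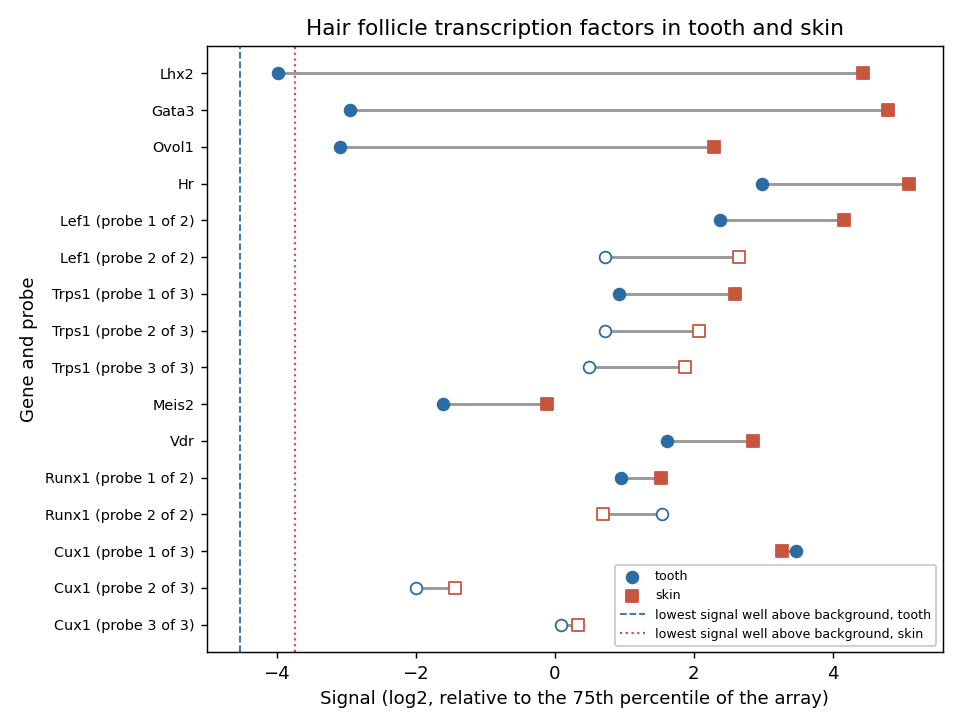
Scaled levels (log2, relative to the 75th percentile of each array) of the 16 probes of the 10 genes on the tooth array (circles) and the skin array (squares), with filled symbols for the probe that stands for a gene and lines for the lowest signal that counted as detected on each array. Lhx2 in tooth, at -3.98, sits closest to its line, and the Runx1 probes run in opposite directions.

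The difference also depended on how the arrays were scaled. The tooth array was brighter, with a 75th percentile of 428 against 276 for skin. Spike-in transcripts, which are added in equal amounts to each sample, did not share this gap, and scaling by the 8 usable spike-ins lowered every difference by 0.62 (log2). The median of all named genes then moved from -0.04 to -0.67, and that of the 10 genes from 1.73 to 1.10. On that scale 6 of the 10 genes were at least 2-fold higher in skin, because Vdr (0.62) and Meis2 (0.88) fell under the threshold. The split of all named genes moved from 14.2% in skin and 15.5% in tooth to 9.03% and 32.4%.

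**Figure D2:**
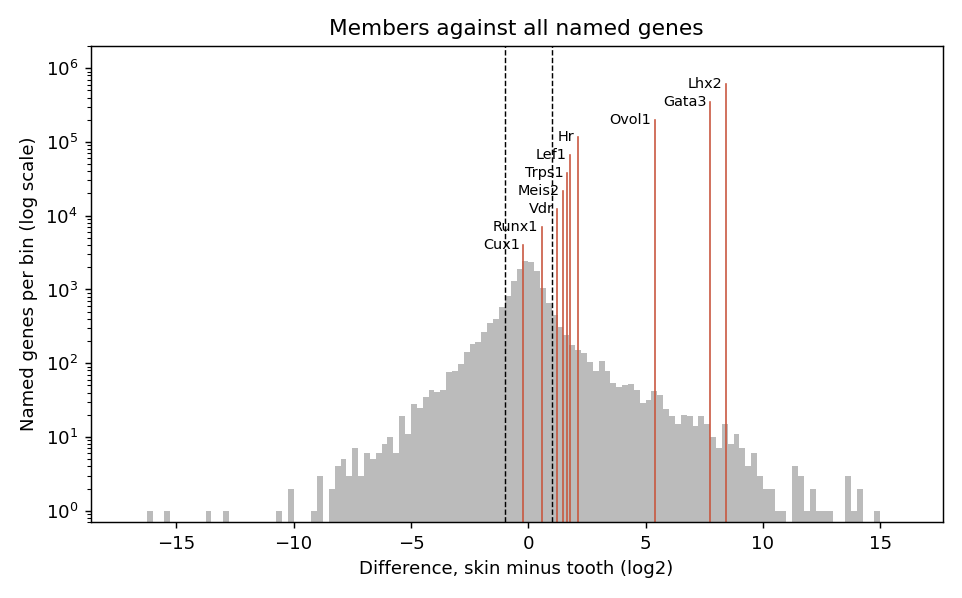
Number of named genes (log scale) in bins of the difference, skin minus tooth (log2), for the 17409 named genes detected on at least 1 array, with a vertical line for each of the 10 genes and dashed lines at a 2-fold difference. Lhx2 (8.41), Gata3 (7.75) and Ovol1 (5.39) lie in the thin right tail, and Cux1 (-0.21) lies beside the peak. The sign of Cux1 and of Runx1 (0.58) changes with the probe, and that of Runx1 also with spike-in scaling.

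The genes with the widest gaps are shown with the first 30 of the 60 bases of the array probe that measured them, since each value rests on that single stretch of the transcript. The Gata3 probe lies at chr2:9779551-9779610 on the minus strand, the Lhx2 probe at chr2:38224933-38224992 on the plus strand and the Ovol1 probe at chr19:5549209-5549268 on the minus strand (mm9, coordinates of the array's own annotation). No part of these sequences is set in capitals.
Lhx2 probe: agagcttccgtattttcaaagactgccacg
Gata3 probe: ttaaggaatatagggggattaaagtatgga
Ovol1 probe: agcacccgtccaactagtaaagtgagagaa

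Lhx2 encodes a LIM homeodomain protein that marks the early hair germ and, later, stem cells of the follicle. Its spot had an intensity of 27.2 in tooth and 5950.4 in skin. The scaled levels were -3.98 and 4.43, a difference of 8.41 or 339-fold. The tooth value lay 0.54 (log2) above the lowest signal that counted as detected there, so the size of the fold rests on a dim spot. Only 0.402% of the named genes had a larger difference toward skin. With normexp, another background correction, the difference was 6.48, and it was 7.78 with spike-in scaling.

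Gata3 encodes a zinc finger factor that specifies the inner root sheath in the follicle and is also a factor of T cells. Its intensity was 55.3 in tooth and 7675 in skin. The scaled level rose from -2.95 to 4.80, so skin was 7.75 (log2) or 215-fold higher, and 0.557% of the named genes had a larger difference. With normexp the difference was 6.42. The other GATA family member among the 10, Trps1, is a repressor named after a human syndrome with sparse hair, and it differed far less. Its 3 probes gave intensities of 812, 708 and 605 in tooth against 1662, 1170 and 1009 in skin. The corresponding differences were 1.67, 1.36 and 1.37 (log2), and all 3 probes were higher in skin by over 2-fold. By the brightest of them Trps1 was 3.17-fold higher in skin. After spike-in scaling the differences were 1.04, 0.73 and 0.75 (log2), so the brightest probe alone stayed above 2-fold.

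The arrays also held 5 other GATA genes, which show which relatives were measured beside these factors. Gata6, which is known from the sebaceous duct and upper follicle, had scaled levels of -4.04 and -1.06, so skin was 2.99 (log2) higher. Gata5 was within 2-fold, with a difference of 0.28. Gata2 was detected in tooth alone, where it was at least 2.18-fold higher, and neither Gata1 nor Gata4 was detected.

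Ovol1 encodes a C2H2 zinc finger repressor that acts downstream of Wnt signalling in epidermis and hair. Its intensity was 50.2 in tooth and 1362 in skin. The scaled levels were -3.09 and 2.30, which is a difference of 5.39 or 42.1-fold, and 1.69% of the named genes differed more. With normexp the difference was 4.13. Its paralog Ovol2, which is known to keep epithelial cells epithelial, had scaled levels of 2.85 and 3.30, and its difference of 0.45 is within 2-fold.

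Hr and Vdr act together, since Hr (hairless) is a corepressor that binds the vitamin D receptor encoded by Vdr, and mice without either gene lose their hair after the first coat. Hr had an intensity of 3377 in tooth and 9501 in skin. The scaled levels were 2.98 and 5.10, so skin was 2.12 (log2) or 4.36-fold higher, and 6.98% of the named genes differed more. Vdr had an intensity of 1316 in tooth and 2010 in skin. Its scaled levels were 1.62 and 2.86, a difference of 1.24 or 2.37-fold. Both transcripts were bright in both tissues, and Vdr was close to the 2-fold threshold, at 0.99 (log2) when the arrays were scaled by their medians and at 0.62 with spike-ins. The Hr probe lies at chr14:70973263-70973322 on the plus strand and the Vdr probe at chr15:97685136-97685195 on the minus strand (mm9).

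Most of the listed partners and targets of this pair were within 2-fold. The same held for 12252 of the 17409 named genes detected on at least 1 array, so this does not set the list apart. Of 12 genes listed for the vitamin D receptor and hairless, 9 were detected on at least 1 array, 1 was at least 2-fold higher in skin, none in tooth and 8 were within 2-fold, with a median difference of 0.06. The exception was Dkkl1, a soggy-family gene related to the Dickkopf proteins, with scaled levels of -2.15 and 4.78, so that skin was 6.93 higher. Trpv6, a calcium channel gene that responds to vitamin D in the gut, differed by 0.97, and Rxra, which encodes a retinoid receptor partner of Vdr, by 0.77 with its brightest probe and by 1.25 with its other probe, which is above 2-fold. Ncor1, a general corepressor gene, differed by -0.21 with its brightest probe and between -0.86 and 0.56 with its others. The vitamin D target Cyp24a1 and the activating enzyme gene Cyp27b1 were not detected in either tissue, and the same held for S100g.

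Lef1 encodes the HMG box factor that carries Wnt signals to the genome with beta-catenin, and mice without it lack both hair and teeth. Its brightest probe had an intensity of 2227 in tooth and 4953 in skin, and its other probe 711 and 1730. The scaled levels were 2.38 and 4.16 for the first and 0.73 and 2.65 for the second. Skin was 1.79 (log2) higher by the first probe and 1.92 by the second, so the probes differed by 0.13. The median gap was 0.26 over the 3241 genes with exactly 2 probes detected in both tissues. By the brighter probe the fold was 3.45, and 8.27% of the named genes differed more. The brighter probe lies at chr3:130926200-130926259 on the plus strand (mm9), and the other one is split over a junction a little upstream.

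The Lef1 relatives did not share its direction by 2-fold, as by their brightest probes Tcf7 differed by -0.96, Tcf7l1 by -0.40 and Tcf7l2 by 0.42 (log2). Of 14 genes of the Wnt list, which holds these relatives too, 6 were at least 2-fold higher in skin, 3 in tooth and 5 within 2-fold, with a median of 0.08. Lgr5, an R-spondin receptor gene of follicle stem cells, was 3.97 higher in skin, and Sp5, a Wnt target, was 3.83 higher. The genes of the secreted Wnt inhibitors Dkk1 and Wif1 were higher in tooth, with differences of -4.82 and -3.41. Edar, the receptor gene of the ectodysplasin pathway used by both organs, was detected in skin alone, at least 3.48-fold higher there. Higher Lef1 in skin stood beside Wnt pathway genes that differed in either direction. Whether this list differs from named genes in general was not tested.

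The RefSeq table (GRCm38.p6) held promoters of 7 of the 10 genes, with 12 windows of 250 bases before a transcript start, and none for Trps1, Ovol1 and Hr. Short letter strings known to be read by the factor families were searched on both strands. For LEF and TCF factors these were CTTTGA and the closely related form CTTTGT, and for MEIS factors the string was TGACAG. The zinc finger family of Gata3 was searched by AGATAA, Runt factors by TGTGGT, nuclear receptors by AGGTCA, LIM homeodomain proteins by TAATTA, and the HMG box proteins of the Sox family by AACAAT. None of the strings is contained in another. Matches were found in 2 windows only, that of an internal Lef1 start and that of Meis2, while 13.8% of all 32851 windows hold CTTTGA, 16.5% hold CTTTGT and 15.9% hold TGACAG. The internal Lef1 window, at chr3:131156044-131156293 on the plus strand (GRCm38.p6), is shown because it holds both LEF and TCF strings in the gene of a LEF factor. Capitals mark the LEF and TCF strings and the MEIS string, all of which read as spelled above on the other strand. A match is only a match of letters, and binding was not measured.
Lef1 internal promoter: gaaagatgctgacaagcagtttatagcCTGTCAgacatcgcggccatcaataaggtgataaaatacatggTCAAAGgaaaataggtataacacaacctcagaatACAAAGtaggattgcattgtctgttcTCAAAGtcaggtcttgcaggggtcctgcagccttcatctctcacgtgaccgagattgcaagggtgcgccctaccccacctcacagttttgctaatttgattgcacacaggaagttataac

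The windows of Lhx2 and Gata3, the genes with the widest gaps, held none of the strings and were rich in G and C. The shares were 72.8% and 68.4% for Lhx2 and 70.0% for Gata3, against a median of 52.4% over all windows. This does not set them apart, since the windows of Cux1 (62.8%) and Vdr (61.2%) also held no string. The Runx1 windows, at 67.6% and 45.6%, held none either.

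Meis2 encodes a TALE homeodomain protein that pairs with Pbx factors and is known from limb, heart and face development. Its intensity was 140 in tooth and 256 in skin. The scaled levels were -1.61 and -0.11, a difference of 1.5 or 2.83-fold, which fell to 1.18 with normexp and to 0.88 with spike-in scaling. By its transcript accession, Meis2 is also on the study's list of genes raised in the Sox21 knockout tooth, which was drawn from other arrays. Its relative Meis1 differed by 0.24, and Meis3 was higher in tooth, by -2.57 with its brightest probe and by -0.77 and -0.22 with its other probes. Among genes of its partner family, Pbx2 differed by -0.19 and Pbx3 by -0.22, and Pbx4 was not detected.

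Runx1, a Runt domain factor that helps activate follicle stem cells and is also a blood and T cell factor, gave opposite directions with its 2 probes. The probe with the higher mean of scaled levels, which stands for the gene, had an intensity of 827 in tooth and 797 in skin, and scaled levels of 0.95 and 1.53, a difference of 0.58. The other probe had an intensity of 1253 in tooth and 447 in skin, and scaled levels of 1.55 and 0.70, a difference of -0.85. Neither reached 2-fold on this scale, and the mean of both was -0.14. With spike-in scaling the probes gave -0.05 and -1.48, and with median scaling 0.33 and -1.10, so under both the second probe was more than 2-fold higher in tooth. The probes start 1372 bases apart in the genome and are annotated to different transcript variants. Whether they read different products was not analysed. Their gap of 1.43 (log2) was wide for this array, since 4.26% of the 3241 genes with exactly 2 such probes, both detected in both tissues, had a gap at least as large, against a median of 0.26. A difference in sign alone was common, at 23.1% of these genes. The first 30 bases of both probes are shown, since the direction for Runx1 depends on which stretch is read. The first lies at chr16:92605785-92605844 and the second at chr16:92604413-92604472, both on the minus strand (mm9).
Runx1 probe higher in skin: caggagggcccttggaggccaccaggaaga
Runx1 probe higher in tooth: tgtgcatcgtgtcactgtaaatgtaatggt

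The other Runt genes and their partner were not higher in skin by 2-fold either. Runx2, the master gene of bone and a tooth factor, differed by -0.97 with its brightest probe. Its other probes were detected in tooth alone, at least 9.30-fold and 3.45-fold higher there. Runx3 gave 0.57 and -0.91 with its 2 probes, again in opposite directions, and Cbfb, the shared partner gene, differed by -0.39.

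Cux1 was the single gene of the 10 with a lower level in skin by its brightest probe, and its probes are annotated to different transcript variants. That probe belongs to transcript variant 2, which is known to encode CASP, a Golgi protein without the DNA-binding domains of Cux1. It had an intensity of 4772 in tooth and 2659 in skin, and scaled levels of 3.48 and 3.27, a difference of -0.21. Both other probes belong to variant 1, which encodes the homeodomain factor known from the inner root sheath. The brighter of these had an intensity of 456 in tooth and 351 in skin, and scaled levels of 0.09 and 0.34, so skin was 0.25 (log2) higher. The dimmer one had an intensity of 108 in tooth and 103 in skin, and scaled levels of -1.99 and -1.43, a difference of 0.56. All 3 probes stayed within 2-fold, and both probes of the transcription factor were on the skin side, a side that spike-in scaling turned, to -0.37 and -0.07. The variant names were read after the values were seen. With spike-in scaling the brightest probe gave -0.84. Its paralog Cux2 was detected in tooth alone, at least 2.44-fold higher there.

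The first 30 bases of each probe are shown by the variant it is annotated to. The variant 2 probe lies at chr5:136724181-136724240, and the variant 1 probes at chr5:136750136-136750195 and chr5:136755342-136755401, all on the minus strand (mm9).
Cux1 variant 2 probe: tccatgatttgagttctgcttgcttcttta
Cux1 variant 1 probe, brighter: tgccatctaatggcttcagagcgataatac
Cux1 variant 1 probe, dimmer: atatcagcagaagccatacccatcaccaaa

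The LIM homeodomain genes related to Lhx2 showed all possible patterns. Lhx8, a gene of the oral and dental mesenchyme, was detected in tooth alone, at least 49.6-fold higher there. Lhx3 and Lhx9 were detected in skin alone, at least 15.5-fold and 2.47-fold higher. By their brightest probes Lhx6 differed by 0.09 and Lhx1 by 0.71, both within 2-fold. Another Lhx6 probe was detected in tooth alone, at least 5.56-fold higher there, and Lhx4 and Lhx5 were not detected. Over all families, 24 of the 29 listed relatives on the arrays were detected in at least 1 tissue. Of these, 3 were at least 2-fold higher in skin, 4 in tooth and 17 within 2-fold, with a median of 0.11. Of the 17409 named genes detected on at least 1 array, 14.2% passed 2-fold toward skin and 15.5% toward tooth. The relatives were thus split much as named genes in general. By contrast, 8 of the 10 genes described above lay at or beyond 2-fold in skin. This contrast between lists was not tested.

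Other transcription factors known from hair, 21 in number, were set beside the 10 genes. All were detected in at least 1 tissue, 11 were at least 2-fold higher in skin, 1 in tooth and 9 within 2-fold, and the median was 1.27. Of all named genes detected on at least 1 array, 14.2% passed 2-fold toward skin and 15.5% toward tooth. Egr2, a gene of the inner root sheath region and of nerve, differed by 5.51, and Hoxc13, which drives hair keratin genes, by 5.20. Gata6 differed by 2.99 and Foxn1, the nude gene, by 2.85. Foxe1 and Tbx18 were detected in skin alone, at least 5.21-fold and 2.40-fold higher. The gene higher in tooth, named here after its value was seen, was Msx2, a homeobox gene that serves tooth and hair, at -2.40.

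**Figure D3:**
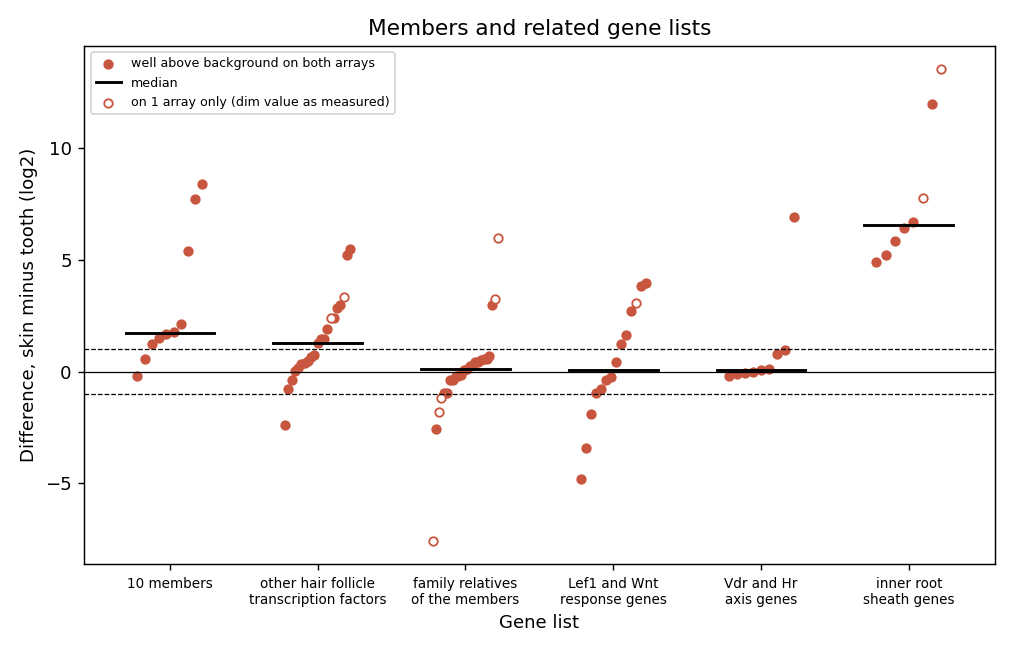
Difference, skin minus tooth (log2), of each gene detected in at least 1 tissue, for the 10 genes, 4 related lists and the inner root sheath genes, with open circles for genes detected in 1 tissue, bars for medians and dashed lines at a 2-fold difference. The medians are 1.73 for the 10 genes, 1.27 for other hair factors, 0.11 for the family relatives, 0.08 for the Wnt list, 0.06 for the vitamin D receptor and hairless list and 6.56 for the inner root sheath genes, and spike-in scaling, which lowers every value by 0.62, turns the sign of the 3 medians next to 0.

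Structural genes of the follicle differed more than most of its factors. Of the 9 inner root sheath genes listed, 8 were detected in at least 1 tissue, and all 8 were at least 2-fold higher in skin, with a median difference of 6.56 and Krt71 at 11.98. All 9 hair shaft keratins on the arrays were at least 2-fold higher in skin, with a median of 5.08 and Krt35 at 10.47. Krt85 passed narrowly, at 1.01 with its brightest probe, while its other probes gave 9.22 and 3.46. Spike-in scaling, which lowers every difference by 0.62, takes its brightest probe below 2-fold. Of the factors linked above to the inner root sheath, Gata3 differed by 7.75 and Egr2 by 5.51, while Cux1 was within 2-fold.

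Markers of the tissues followed their labels. The 6 ameloblast genes were all higher in tooth, with scaled levels between 0.96 and 10.27 there, and 5 of them, among them Amelx and Ambn, were not detected in skin. The 5 suprabasal epidermis genes were all higher in skin, with a median difference of 9.11. Genes of basal epithelium, the layer that both tissues share, were close, with differences between 0.06 and 1.19 and a median of 0.66. Fibroblast and mesenchyme genes were higher in tooth in 4 of 5 cases, with a median of -2.43.

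Cells other than those of the follicle can hold some of these transcripts, and their markers moved as follows. The 5 suprabasal epidermis genes, given above, had a median difference of 9.11. The part of the epidermis in the Gata3 and Ovol1 values was not tested. Of the 7 T cell and leukocyte genes, 5 were detected in at least 1 tissue, with a median of 0.84, and Cd3e differed by 0.84 and Lck by 0.95. Cd3d was detected in skin alone, at least 3.44-fold higher. Cd4 differed by 0.22 with its brightest probe and by 2.93 with its other probe, which was detected in both tissues. The general leukocyte gene Ptprc was detected in tooth alone, at -3.65, with -3.67 in skin, and Cd3g and Il7r were not detected. The part of such cells in the Gata3, Lef1 and Runx1 values was not tested. All 4 skeletal muscle genes were at least 2-fold higher in skin, with a median of 3.37, and the Merkel cell genes Atoh1 and Krt20 were detected in skin alone, at least 8.62-fold and 16.1-fold higher, while the other genes of the Merkel cell list, Krt18 and Krt8, which simple epithelia also express, differed by -2.73 and -0.58. Dermal papilla genes went either way, from Crabp1 at -3.48 to Corin, which was detected in skin alone and at least 10.8-fold higher. Other marker lists leaned toward tooth. All 6 odontoblast and bone genes were at least 2-fold higher in tooth, with a median of -7.99. Macrophage genes were higher in tooth in 3 of 4 cases, with a median of -1.0. Of the 3 cartilage genes detected, 2 were at least 2-fold higher in tooth, with a median of -1.36. The part of all these cells in the values of the 10 genes was not tested either.

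**Figure D4:**
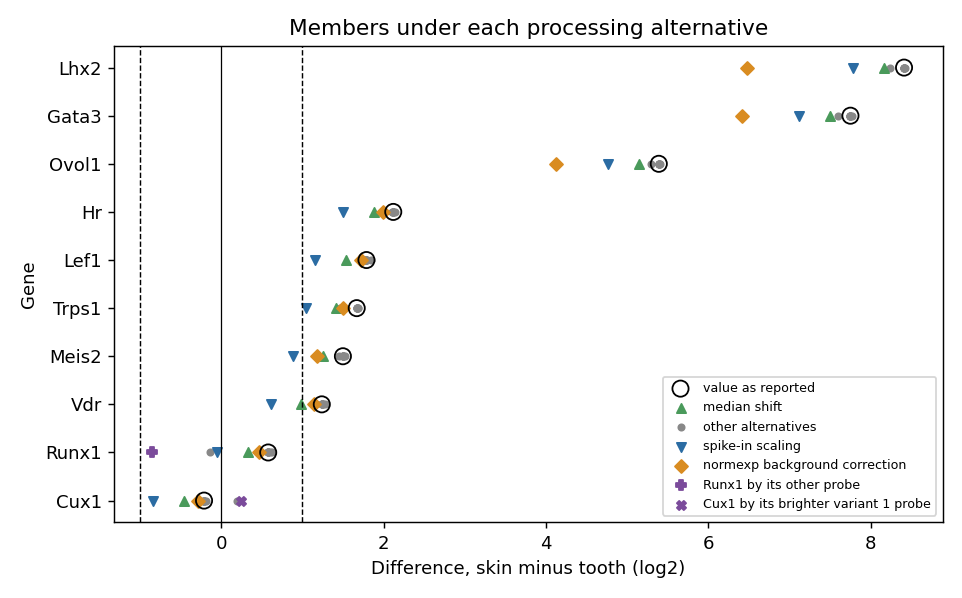
Difference, skin minus tooth (log2), of each of the 10 genes as reported (open circles) and under each alternative way of processing (small symbols), with dashed lines at a 2-fold difference. Lhx2, Gata3 and Ovol1 stay far above 2-fold, with lowest values of 6.48, 6.42 and 4.13, Meis2 and Vdr drop below it with spike-in scaling, and Runx1 and Cux1 change sign.

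Across 11 alternatives and 2 added after the values were seen, Hr, Lef1, Trps1, Lhx2, Gata3 and Ovol1 stayed at least 2-fold higher in skin. Each was read by the probe that stands for the gene, or by the mean of its probes in the alternative of that name. The lowest values were 1.5 for Hr, 1.16 for Lef1 and 1.04 for Trps1, all with spike-in scaling. Vdr and Meis2 were higher in skin under each of the 13, but below 2-fold in 2 for Vdr and in 1 for Meis2. Runx1 ranged from -0.85 to 0.63 and Cux1 from -0.84 to 0.25, so neither has a settled direction.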

How the data were processed

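Per the labels, total RNA was purified on columns and 50 ng was labelled with Cy3 for 1-colour Agilent arrays. Per the file headers, the deposited intensities came from Agilent Feature Extraction (version 10.7.3.1, as the submitters' processing notes also state), which subtracted background and corrected trends within each array. The methods of the study name GeneSpring, a filter on very low signals and a percentile shift. A second table deposited by the authors holds 1 value per spot, a ratio of that intensity to 1 factor per array (430.7 tooth, 274.5 skin), used as an alternative.

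Each array held 62976 spots, 3671 of them controls. Outlier spots were left out, which left 55675 probes, and spots of a probe were averaged. From log2 intensity the array's 75th percentile over non-control probes was subtracted. A probe was detected (well above background) when over 50% of its spots were called so, which held for 56.7% of probes in tooth and 52.5% in skin, and for 0 and 1 of 308 negative-control spots. Where a gene had several probes, the one brightest on average represented it. Where a gene was dim on 1 array, its fold is a bound, written as at least N-fold, taken against the higher of the dim value and the lowest signal called well above background (-4.52 tooth, -3.73 skin). With 1 array per tissue there was no test, and the number of arrays limits the precision.

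Names came from the arrays, updated through RefSeq accessions (27234 of 33182 named probes matched). Coordinates are the arrays' own (mm9), and the exon or UTR under a probe was not analysed here. Members and lists were chosen with earlier results of these data known, and some genes are in several lists (Gata6, Tcf7, Tcf7l1, Tcf7l2, Sox18, Trp63). Named were all members with every probe, relatives family by family, and from other lists up to 4 genes with the largest differences well above background on both arrays and the 2 largest bounds, with exceptions stated. Ovol3 and Krt83 were not analysed here. The values of 1 relative are not reported here. Alternatives were median, quantile and spike-in scaling, normexp (limma 3.58.1, R 4.3.3, offset 50), the deposited table, the mean of probes, 3 other filters, dim values at their bound and outliers kept. The scripts (Python 3.11.15, numpy 2.4.6, pandas 2.3.3) were tested on simulated data.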

Additional observations from a re-analysis of the deposited data

Results flagged for a closer look

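Within 100 kb of the probes of the 10 genes, 3 probes for long non-coding regions were found, all near Vdr, about 11 kb away on the same strand. They read 1 region, and 1 of the 3, at chr15:97674076-97674135 (mm9), was detected (well above background) in skin alone, with a measured difference of 3.93 (log2) and a bound of at least 3.48-fold. The other probes of the region were not detected. Such probes were outside the comparisons above, and 40.6% of the 16248 non-coding probes were detected in at least 1 tissue, so a signal of this kind was frequent. As each tissue had 1 array, no gene could be examined for an array that stands apart.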

How the results depend on the processing

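No paired analysis was possible because each tissue had 1 array, and no array could be left out for the same reason. No result took the opposite sign of a difference of 2-fold or more. The median of the 10 genes, 1.73 as reported, was 1.48 with median scaling, 1.10 with spike-in scaling and 1.61 with normexp, and the count at least 2-fold higher in skin was 7 with median scaling and 6 with spike-ins. The median of other hair factors (1.27) was 1.02, 0.64 and 0.90 under the same settings and 0.76 with only genes detected in both tissues, and their count higher in tooth (1) became 2 with median scaling and 3 with spike-ins. The median of the relatives (0.11) was -0.14 with median scaling, -0.52 with spike-ins, -0.18 with the mean of probes and 0.24 with no filter. Their count higher in skin (3) became 1 with genes detected in both tissues, and that in tooth (4) became 1 with these genes and 8 with spike-ins. The median of the Wnt list (0.08) was -0.16 with median scaling, -0.54 with spike-ins, -0.09 with the mean of probes and -0.25 with genes detected in both tissues, and its count higher in tooth (3) became 5 with median scaling and 6 with spike-ins. The median of the vitamin D receptor and hairless list (0.06) was -0.19 with median scaling and -0.57 with spike-ins, and its count higher in skin (1) became 2 with the mean of probes. Median scaling and spike-in scaling shift all genes alike, and median scaling moved the median of all named genes from -0.04 to -0.29. The cause of the other changes was not tested. Signal over background limits the folds of Lhx2, Gata3 and Ovol1, whose tooth spots lay 0.54, 1.56 and 1.42 (log2) above the lowest signal that counted as detected.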
